A study of Homo sapiens with 480 samples.

Results

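BJ fibroblasts, an established line of human neonatal foreskin fibroblasts, were measured cell by cell before any reprogramming factor had been introduced. Of the 96 BJ cells, 92 were kept because at least 2000 genes reached a level of 1 and ACTB or GAPDH did so too. They were 92 of the 460 cells kept in the whole series. As background stand cells of the same line 2 and 8 days after viral delivery of the induced factors OCT4, SOX2, KLF4 and MYC (D2 and D8, with 96 and 92 kept cells), and cells of day 16 that carried or lacked the surface epitope TRA-1-60 in a sort (D16_pos and D16_neg, with 95 and 85 kept cells). The BJ cells carried no factor, were labelled WT and were expanded in 10% fetal bovine serum. Single cells were captured after trypsin treatment on a microfluidic chip, and polyadenylated RNA was sequenced. The labels name 1 line and no separate culture or chip, so the 92 cells count as 1 sample, nothing below was tested, and every spread is a spread between cells.

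Fibroblasts build connective tissue. They secrete fibrillar collagens, fibronectin and proteoglycans, cross-link them outside the cell and pull on them with actin and myosin. In serum they divide, and a dividing cell makes the proteins of DNA replication in S phase and those of chromosome segregation in G2 and M phase, while a cell that leaves the cycle makes few of either. Collagen is rich in glycine and proline, and the transcription factor ATF4 is known for switching on the enzymes of serine, glycine and asparagine synthesis.

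The deposited FPKM values, which are already divided by transcript length, were scaled so that each cell summed to 1000000, and are called levels here. A gene was counted as detected in a cell at a level of 1 or more. The kept BJ cells had between 2625 and 8133 detected genes, with a median of 5678, and 8 cells had under 4000. The cell nearest to the threshold on the outside had 1891 detected genes. No pair of cells held identical values. The number of reads per cell is unknown. In 5 kept cells small RNA genes took between 33.1% and 74.9% of the total, whereas the remaining 87 cells stayed below 2.5%. The 7 cells with a deposited total over 1.5 times the median of 751449 FPKM included these 5, and results without the 7 are given with the alternatives.

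All 5 fibroblast markers were detected in 75 of 92 cells, and 4 of them in the remaining 17. COL1A1, a chain of type I collagen, ranged from 19.2 to 3304 with a median of 442.6. COL1A2, its partner chain, ranged from 28 to 6124 with a median of 1597. The lowest levels of both chains were in the cell with the highest deposited total. FN1 (fibronectin) ranged from 162 to 5280 with a median of 973, and THY1, a surface protein of fibroblasts, from 14.4 to 3438 with a median of 207. These 4 genes were detected in every kept cell. LUM, the collagen-binding proteoglycan lumican, was different. It was below 1 in 17 cells, had a median of 87.8 and reached 3124. Markers of other cell types were mostly near 0. The summed level of 10 endothelial genes had a median of 0 and a highest cell at 16.3, and the sum of 15 pluripotency genes had a median of 0 and a highest cell at 48. PTPRC, the leukocyte surface marker CD45, was at 1 or more in 0 of 92 cells, which allows a share of up to 3.26%. Some lists had 1 gene that stood out. The sum of 10 keratinocyte genes reached 281 through KRT10 (mean 31.6, detected in 68.5% of cells), with KRT5 and KRT14 at 0 in every cell. The sum of 11 blood and immune genes reached 145 through CD68, a lysosomal protein of macrophages (mean 12.7, detected in 45.7%). The muscle sum had a median of 0.454 and reached 245 through the cardiac actin ACTC1. The highest mean among these lists belonged to KRT18, a keratin of simple epithelia that mesenchymal cells in culture can also express, with a mean of 289 and detection in 94.6% of cells, while its partner KRT8 averaged 4.72.

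**Figure D1:**
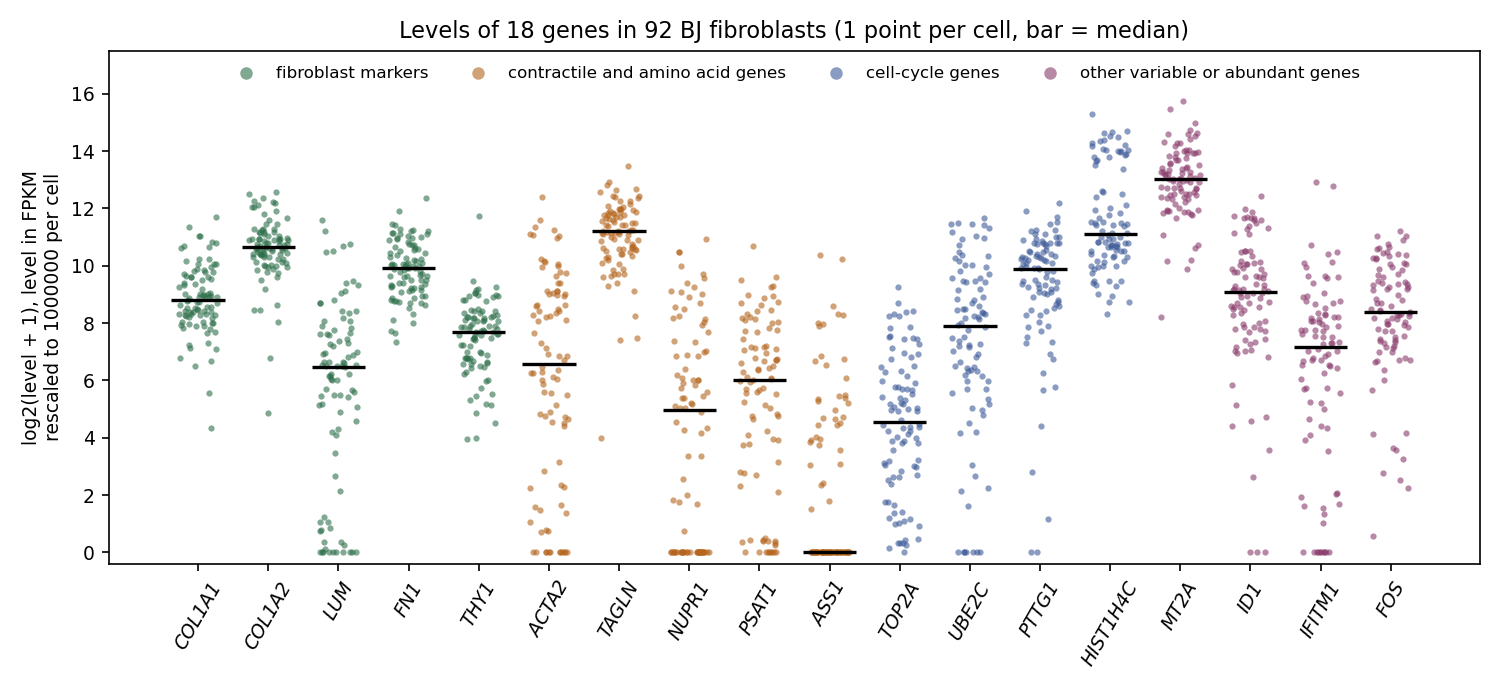
Each point is 1 of 92 BJ cells, the vertical axis is log2(level + 1) and black bars are medians. The 2 type I collagen genes stay within a narrow band above 0 in nearly all cells, whereas ACTA2, NUPR1, ASS1 and UBE2C spread from 0 to levels of 1000 or more.

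The transcriptome of these cells was led by ribosomal proteins and by the cytoskeleton. The 86 ribosomal protein genes together made up a median of 20.9% of a cell's total, between 4.94% and 29.6%, and 9 of the 25 genes with the highest mean were among them. The share of 4.94% was in the cell where small RNA genes took 74.9% of the total. Actins, tubulins and vimentin, listed with LMNA, PFN1, CFL1 and the thymosins TMSB10 and TMSB4X (14 genes), took a median of 6.83%. S100 proteins and annexins, listed with LGALS1, LGALS3, CD63 and CD9 (14 genes), took 4.10%. Of the mean sums of these lists, 65677 and 40825, TMSB10 made up 24100 and LGALS1 16050. Contractile and actin-binding genes (17 genes) took 1.70%, glycolytic enzymes (16 genes) 1.53% and the 13 collagen genes 0.329%. The mitochondrial ribosomal RNAs RNR1 and RNR2 took a median of 3.31%, with cells from 0.206% to 18.1%. The 25 genes together made up 25.4% of the mean total.

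Behind RNR2, the gene with the highest mean was TMSB10, a thymosin that binds actin monomers, at 24100.3 ± 9093 (SD over 92 cells). LGALS1, the secreted lectin galectin-1, followed at 16049.9 ± 5893, and FTL, the ferritin light chain that stores iron, averaged 14076 ± 7829. MT2A, a metal-binding metallothionein, averaged 10751 ± 8868 and differed widely between cells. Its lowest level, 295, was in the cell with the highest deposited total, and it was at 8346 in the median cell and 55234 in the highest. ACTB (9716 ± 3914), GAPDH (7990.1 ± 2662), S100A6 (7895 ± 3863), VIM (7607 ± 3411) and MYL6 (5763 ± 1942) were also among the 25 genes with the highest mean.

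How much a gene varied was read from the SD of log2(level + 1) over the 92 cells, set against the median SD of genes of like mean. Of the 5327 genes with a mean of at least 10 that were detected in at least 10% of cells, 573 (10.8%) had an SD at least 0.5 above that median and are called variable. The highest of the bins of like mean was wide, with 267 genes whose means ran from 399 to 26471. Variable genes had slightly shorter transcripts, with a median of 809 bases against 904 in the other genes, and the part of length in their spread was not tested. The genes with the largest excess included ones of very different kinds. ACTA2, the smooth muscle actin that marks myofibroblasts, was below 1 in 15 cells, had a median of 95.7 and reached 5390, and its SD was 1.49 above genes of like mean. UBE2C, the ubiquitin-conjugating enzyme that acts with the anaphase-promoting complex, was at 0 in 7 cells and at 1000 or more in 18, with an excess of 1.40. NUPR1, a small stress-induced chromatin protein, was below 1 in 34 cells and at 1000 or more in 4, with an excess of 1.32.

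ID1, an inhibitor of basic helix-loop-helix factors and a target of BMP signalling, had a median of 541 and ranged from 0 to 5551 (excess 1.28). G0S2, an inhibitor of triglyceride breakdown named for the G0 to G1 switch, was below 1 in 49 cells and at 1000 or more in 3 (excess 1.26). IFITM1, an interferon-induced membrane protein, had a median of 144 and reached 7766 (excess 1.13). SRGN, the proteoglycan serglycin, and CRIP1, a LIM-domain protein, were detected in 55.4% and 51.1% of cells and reached 1955 and 1627. The same top group held the snoRNA host genes SNHG25, SNHG9 and SNHG19, the ER membrane complex subunit EMC6, the mitochondrial proteins ROMO1 and MRPL54, and LSM10 of the histone pre-mRNA machinery. The single largest excess, 4.33, belonged to LOC100505841, which was below 1 in 13 cells and at 1000 or more in 63. RPL13AP5 (excess 2.15) is a copy of a ribosomal protein gene and MT1L (1.59) a member of the metallothionein cluster. How reads were shared between such near-identical copies is not given in the sources used here, so their levels are uncertain.

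**Figure D2:**
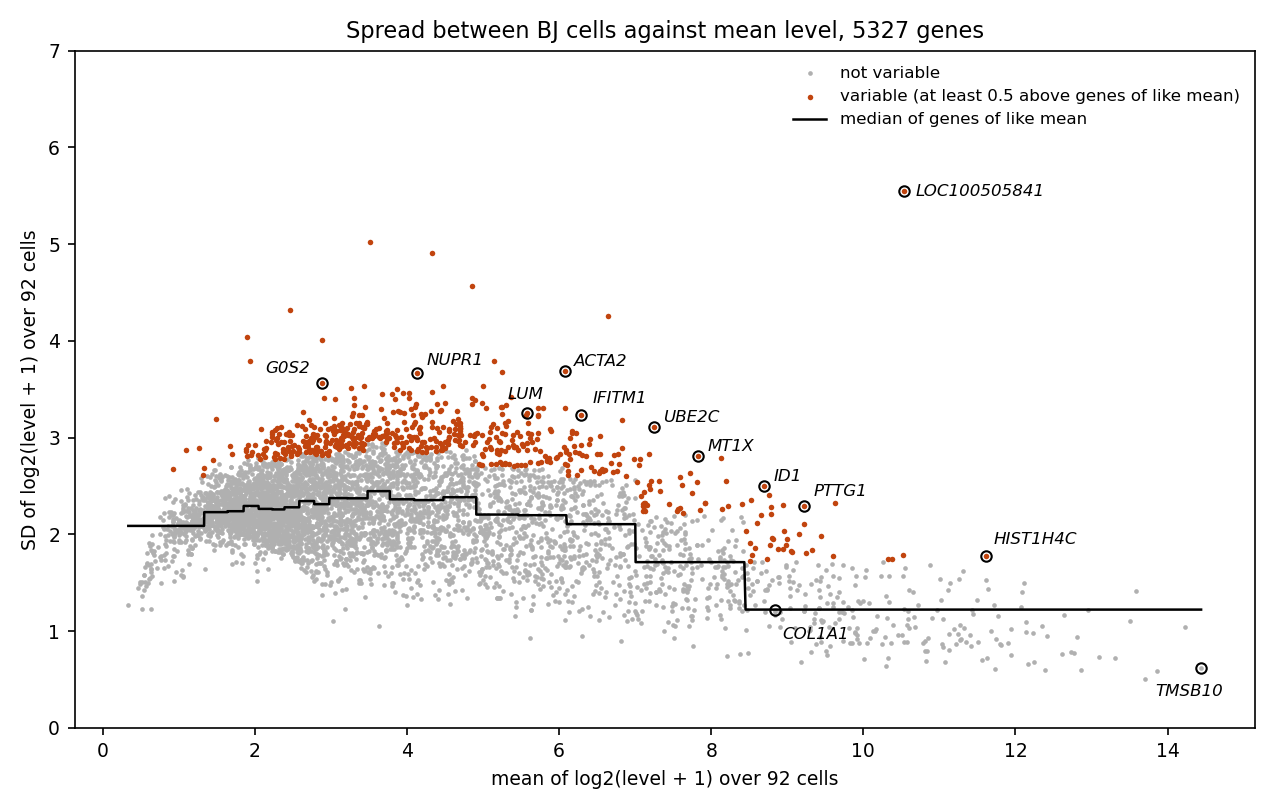
Each point is 1 of 5327 genes, with its mean and its SD of log2(level + 1) over 92 BJ cells; the black line is the median SD of genes of like mean and variable genes are coloured. LOC100505841 stands alone at the top, ACTA2, NUPR1 and UBE2C lie above most genes of their mean, COL1A1 lies on the line and TMSB10 below it.

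Genes that go up and down together between cells were found from rank correlations (rho) over the 92 cells, after the number of detected genes per cell had been taken out of both ranks. All cells share 1 table and, as far as the labels say, 1 culture, so rho describes these cells only. Over all pairs of the 5327 genes the median rho was 0.031, and 1.26% of pairs reached 0.3, the value from which a pair is called strong here.

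The strongest programme was mitosis. All 32 genes of the G2 and M phase list were examined, and 388 of their 496 pairs (78.2%) were strong, with a median rho of 0.421. Their summed level ranged from 56.6 to 15833 with a median of 4275, and at least 30 of the 32 genes were detected in 30 cells, at least 20 in 78 and at least 10 in 89. The closest pair was CDC20, the activator of the anaphase-promoting complex, and TPX2, a spindle assembly factor, at a rho of 0.77. CDC20 was nearly as close to CCNB1 (cyclin B1, the regulatory partner of CDK1), at 0.76. TOP2A, the topoisomerase that untangles sister chromatids, was closest to UBE2C (0.68) and then to the kinesin KIF23 (0.62). CENPF, a kinetochore protein, had the highest mean rho to the other members, 0.53, and was strongly correlated with 30 of the other 31. CDK1 itself was looser, with a mean rho of 0.22 and 11 strong partners.

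Of the 32 genes, 9 were variable, against 10.8% of all genes examined. They were UBE2C, PTTG1, CDK1, AURKB, HMGB2, CDC20, TTK, AURKA and CCNB1. The count depends on the measure, with 5 over all 96 cells and 1 of 32 by the squared coefficient of variation, by which 637 of all genes were variable. PTTG1, the securin that holds back chromatid separation, was the most abundant of them, with a median of 953 and a range from 0 to 4725. AURKB, the kinase of the chromosomal passenger complex, was detected in 71.7% of cells with a median of 32.4 and reached 744. TTK, the spindle checkpoint kinase, was detected in 54.3% of cells and reached 1015. TOP2A was below 1 in 9 cells, from 1 to 10 in 22, from 10 to 100 in 41 and at 100 or more in 20. CKS2, a small CDK-binding subunit, was detected in every cell, with a lowest cell at 1.63, a median of 349 and a highest cell at 2889.

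Promoters of mitotic genes are known for a bipartite arrangement of CCAAT boxes, bound by NF-Y, and a cell cycle genes homology region (CHR), bound by the DREAM and MuvB complexes. RefSeq windows of 250 bases before to 50 after the start (GRCh38.p14) were found for 26 of the 32 genes and were searched on both strands for TTTGAA (CHR) and CCAAT. A CHR was present for 18 of the 26 (69.2%), against 18.2% of 27305 genes with a window, and a CCAAT box for 24 of 26 (92.3%), against 39.7%. The CCAAT box was not particular to this list. It was also present for 8 of 8 ER chaperone, 16 of 23 S phase, 9 of 15 contractile, 7 of 12 amino acid and 3 of 7 collagen genes. A match is a description of the letters, not a bound site. Below are 3 such windows, shown because they hold a CCAAT box on the reverse strand (ATTGG) exactly 4 bases before a CHR, with both motifs in capitals on either strand. This spacing was chosen after the sequences had been seen. It was present for 4 of the 26 genes (TOP2A, CDK1, CDC20 and KIF23), against 0.117% of all genes with a window. The windows lie at chr17:40417847-40418146 on the minus strand (TOP2A), chr10:60778228-60778527 on the plus strand (CDK1) and chr15:69414099-69414398 on the plus strand (KIF23).
TOP2A: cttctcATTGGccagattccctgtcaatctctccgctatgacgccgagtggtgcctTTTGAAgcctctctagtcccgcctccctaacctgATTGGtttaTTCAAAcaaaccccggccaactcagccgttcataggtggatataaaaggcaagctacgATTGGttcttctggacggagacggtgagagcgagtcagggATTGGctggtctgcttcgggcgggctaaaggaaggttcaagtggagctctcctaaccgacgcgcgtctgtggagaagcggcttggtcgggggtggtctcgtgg
CDK1: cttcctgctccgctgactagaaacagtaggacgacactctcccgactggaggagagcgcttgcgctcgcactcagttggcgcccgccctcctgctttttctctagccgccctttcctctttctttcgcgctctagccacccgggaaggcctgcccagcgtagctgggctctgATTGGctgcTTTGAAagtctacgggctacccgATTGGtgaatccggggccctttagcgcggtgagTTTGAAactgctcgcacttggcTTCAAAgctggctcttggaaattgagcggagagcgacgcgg
KIF23: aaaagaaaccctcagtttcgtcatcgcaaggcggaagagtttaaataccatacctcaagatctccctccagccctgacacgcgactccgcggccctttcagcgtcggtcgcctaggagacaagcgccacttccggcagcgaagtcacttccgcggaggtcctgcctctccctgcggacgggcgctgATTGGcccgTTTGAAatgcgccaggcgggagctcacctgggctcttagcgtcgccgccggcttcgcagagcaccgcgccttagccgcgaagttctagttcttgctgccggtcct
In TOP2A the pair begins 160 bases before the start, in CDK1 78 bases and in KIF23 64 bases before it. The 3 genes had means of 68.9 (TOP2A), 113 (CDK1) and 67.6 (KIF23), and KIF23 and CDK1 correlated with TOP2A at 0.62 and 0.51.

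The S phase list formed a separate and looser group. Of its 28 genes 25 were examined, 96 of 300 pairs were strong (32%), and the median rho was 0.252. PCNA, the sliding clamp of DNA polymerase, was its centre, with a median of 166, a highest cell at 4371, and strong correlation with 19 of the other 24 members. Its closest partner was MCM5 of the replicative helicase, at 0.58. The variable members were PCNA, GINS2, GMNN and FEN1 (4 of 25, against 10.8% of all genes examined), and 1 member was variable with a pseudocount of 10. The S phase and the G2 and M phase scores, each the mean standardised rank of its genes, correlated at 0.21. RRM2, the ribonucleotide reductase subunit, stood between the lists, since it correlated positively with 32 of 32 G2 and M phase genes at a median of 0.37, whereas PCNA did so with 24 of 32 at a median of 0.096.

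HIST1H4C, a replication-dependent histone H4 gene, was detected in every cell and was the only gene of the 25 with the highest means, apart from LOC100505841, that was also variable. Its level was 315 in the lowest cell, 2202 in the median cell and 40009 in the highest. Away from the ends, the widest gap between neighbouring values was 0.76 on the log2 scale, with 67 cells at up to 6215 and 25 cells from 10526 upwards. A widest gap exists for any gene, so it does not show separate kinds of cells. HIST1H4C correlated with the S phase score at 0.18 and with the G2 and M phase score at 0.0998. With single genes it was higher for TOP2A, at 0.39, than for PCNA (0.25) or RRM2 (0.16).

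Collagen genes varied together although none was variable by the measure above. Of the 13 fibrillar and basement membrane collagens 0 of 13 had an SD 0.5 above genes of like mean, against 10.8% of all genes, and 9 of 13 were detected in at least 90% of cells, against 25.6%. Yet 35 of their 78 pairs (44.9%) were strong, with a median rho of 0.28. The summed level ranged from 240.04 to 11367 with a median of 3288. COL1A1 and COL1A2 correlated at 0.74, COL1A2 and COL3A1 (type III collagen) at 0.72 and COL1A1 and COL3A1 at 0.69. COL6A3 of the microfibrillar type VI collagen followed COL1A2 at 0.59. COL11A1 was the exception, with 0 strong partners and a mean rho of 0.078.

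After these 2 collagens, the genes nearest to COL1A1 came from several groups. SERPINH1, the collagen chaperone HSP47 of the endoplasmic reticulum, followed at 0.65, FN1 at 0.61, ACTA2 at 0.58, the actin cross-linker FLNA at 0.58, NUPR1 at 0.55, PHGDH at 0.55, the nuclear RNA MALAT1 at 0.54 and LUM at 0.54. The score of matrix enzymes and inhibitors (18 genes examined) correlated with the collagen score at 0.71, although its own pairs were only weakly correlated, with 14 of 153 strong (9.15%). MMP1, the interstitial collagenase, stood apart from its own list with a mean rho of -0.061. It was variable and detected in 68.5% of cells, and its strongest partner in the list was PLAU (urokinase) at 0.36. THY1 followed a partly different set, with FN1 at 0.57, the cross-linking enzyme LOXL2 at 0.47 and TPM2 at 0.44, and correlated with COL1A1 at 0.37.

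Among secreted matrix glycoproteins and proteoglycans, LUM, POSTN and CTHRC1 were variable (3 of 21 examined), near the share of 10.8% over all genes examined. POSTN (periostin, which binds collagen and is known from wound fibroblasts) was detected in 56.5% of cells, with a median of 2.11 and a highest cell at 1337. CTHRC1, a secreted protein linked to collagen production, had a median of 72.7 and reached 957. LUM had 12 strong partners among the other 20, and its closest was THBS2 (thrombospondin-2) at 0.52. SPARC, a collagen-binding protein, and THBS1 were detected in every cell, with medians of 659 and 522.

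The contractile genes moved with the collagens. Of 17 listed genes 16 were examined and 37 of 120 pairs were strong (30.8%), at a median rho of 0.204. The core was TAGLN (transgelin), TPM1 and TPM2 (tropomyosins), CALD1 (caldesmon) and MYH9 (non-muscle myosin), with TAGLN and TPM1 at 0.61, TAGLN and TPM2 at 0.60 and TAGLN and CALD1 at 0.57. TAGLN ranged from 14.8, in the cell with the highest deposited total, to 11468 with a median of 2356 and was not variable for its level. It correlated positively with 11 of 13 collagens, at a median of 0.33. The contractile and collagen scores correlated at 0.65.

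ACTA2 was the single variable member of the contractile list (1 of 16, against 10.8% of all genes examined), and its closest genes lay outside that list. They were COL1A1 (0.58), the sulfatase SULF1 (0.55), POSTN (0.54), the urea cycle enzyme ASS1 (0.53), NUPR1 (0.53), the retinal dehydrogenase ALDH1A1 (0.51), INHBA (the activin A subunit, 0.51), LUM (0.49) and the elastin gene ELN (0.49). Of its own list, CALD1 correlated with it at 0.40 and TAGLN at 0.37. Its most negative correlations were with STMN1 (stathmin, a microtubule-destabilising protein high in dividing cells) at -0.54, the checkpoint protein BUB3 at -0.53 and the splicing protein SNRPB at -0.52. ACTA2 correlated negatively with 32 of 32 G2 and M phase genes, at a median of -0.33. Since ACTA2 shares long stretches with other actin genes, the counting of its reads is uncertain.

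Contractile genes are known targets of serum response factor, which binds the CArG box. The CArG consensus on both strands was present in the RefSeq window of 6 of the 15 listed genes that have one (40%: TPM4, CNN2, ACTN1, TGFB1I1, FHL1 and ACTG2), against 1.6% of all genes with a window. Of the core genes named above, TPM1, TPM2, CALD1 and MYH9 had no match in this window, and TAGLN had no window. ACTA2 had no match either. One of the 3 windows of TGFB1I1, a focal adhesion protein also called HIC-5, is shown because its box is a perfect palindrome. It lies at chr16:31472955-31473254 on the plus strand, with the CArG box, 51 to 42 bases before the start, in capitals.
TGFB1I1: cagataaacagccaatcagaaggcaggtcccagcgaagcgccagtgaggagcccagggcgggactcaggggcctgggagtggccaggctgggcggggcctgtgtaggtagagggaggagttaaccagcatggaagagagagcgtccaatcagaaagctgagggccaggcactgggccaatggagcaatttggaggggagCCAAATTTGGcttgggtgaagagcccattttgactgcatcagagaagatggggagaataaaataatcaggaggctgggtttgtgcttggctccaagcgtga
TGFB1I1 averaged 125 ± 142, was detected in 92.4% of cells and correlated with TAGLN at 0.38.

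Among the lists that moved with the collagens was one of amino acid and ATF4 target genes, which was split from a longer stress list after its values had been seen. Of its 14 genes 11 were examined, and 18 of 55 pairs were strong (32.7%), at a median rho of 0.221. On the log2(level + 1) scale 5 of the 11 were variable (DDIT3, TRIB3, PSAT1, PHGDH and SHMT2), against 10.8% of all genes examined. The count of variable genes was 2 by the squared coefficient of variation and 0 with a pseudocount of 10. The core was PHGDH and PSAT1, which begin serine synthesis, and ASNS, the asparagine synthetase. PSAT1 had a median of 64.1 and a range from 0 to 1631, PHGDH a median of 45.2 and a range from 0 to 1465, and ASNS a median of 29.1 and a range from 0 to 1370. PSAT1 was below 1 in 18 cells, from 100 to 1000 in 36 and above 1000 in 1. PHGDH was below 1 in 17 cells and above 1000 in 2, and ASNS below 1 in 24 and above 1000 in 1, so levels above 1000 were the exception. PSAT1 correlated with ASNS at 0.62, with PHGDH at 0.62, with NUPR1 at 0.63 and with the mitochondrial folate enzyme MTHFD2 at 0.49. ATF4 mRNA itself was not variable, with a mean rho of 0.13 to the members and 0 strong partners.

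An amino acid response element of the form TGATGNAA (CARE, both strands) was present in the window of 3 of the 12 genes that have one (ASNS, ATF3 and CHAC1, 25%), against 4.46% of all genes with a window. PSAT1, PHGDH and MTHFD2 had no match in this window, and ATF3 had 0 strong partners in the list. The window of ASNS is shown because ASNS is the textbook case. It lies at chr7:97872359-97872658 on the minus strand, with the element, 68 to 61 bases before the start, in capitals.
ASNS: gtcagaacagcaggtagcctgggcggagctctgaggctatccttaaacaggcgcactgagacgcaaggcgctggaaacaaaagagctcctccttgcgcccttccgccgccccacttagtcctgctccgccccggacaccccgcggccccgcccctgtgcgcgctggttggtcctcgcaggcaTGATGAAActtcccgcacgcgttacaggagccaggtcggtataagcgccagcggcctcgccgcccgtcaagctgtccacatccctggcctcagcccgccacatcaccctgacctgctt
The ER chaperones, which share the longer stress list, behaved differently. HSPA5 (BiP), HSP90B1 (GRP94) and PDIA4 were correlated among themselves, with HSPA5 and PDIA4 at 0.48 and HSPA5 and HSP90B1 at 0.45, but over all 28 pairs the median was 0.116 and 4 pairs were strong. The ER chaperone score correlated with the amino acid score at 0.080 and with the collagen score at 0.28.

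**Figure D3:**
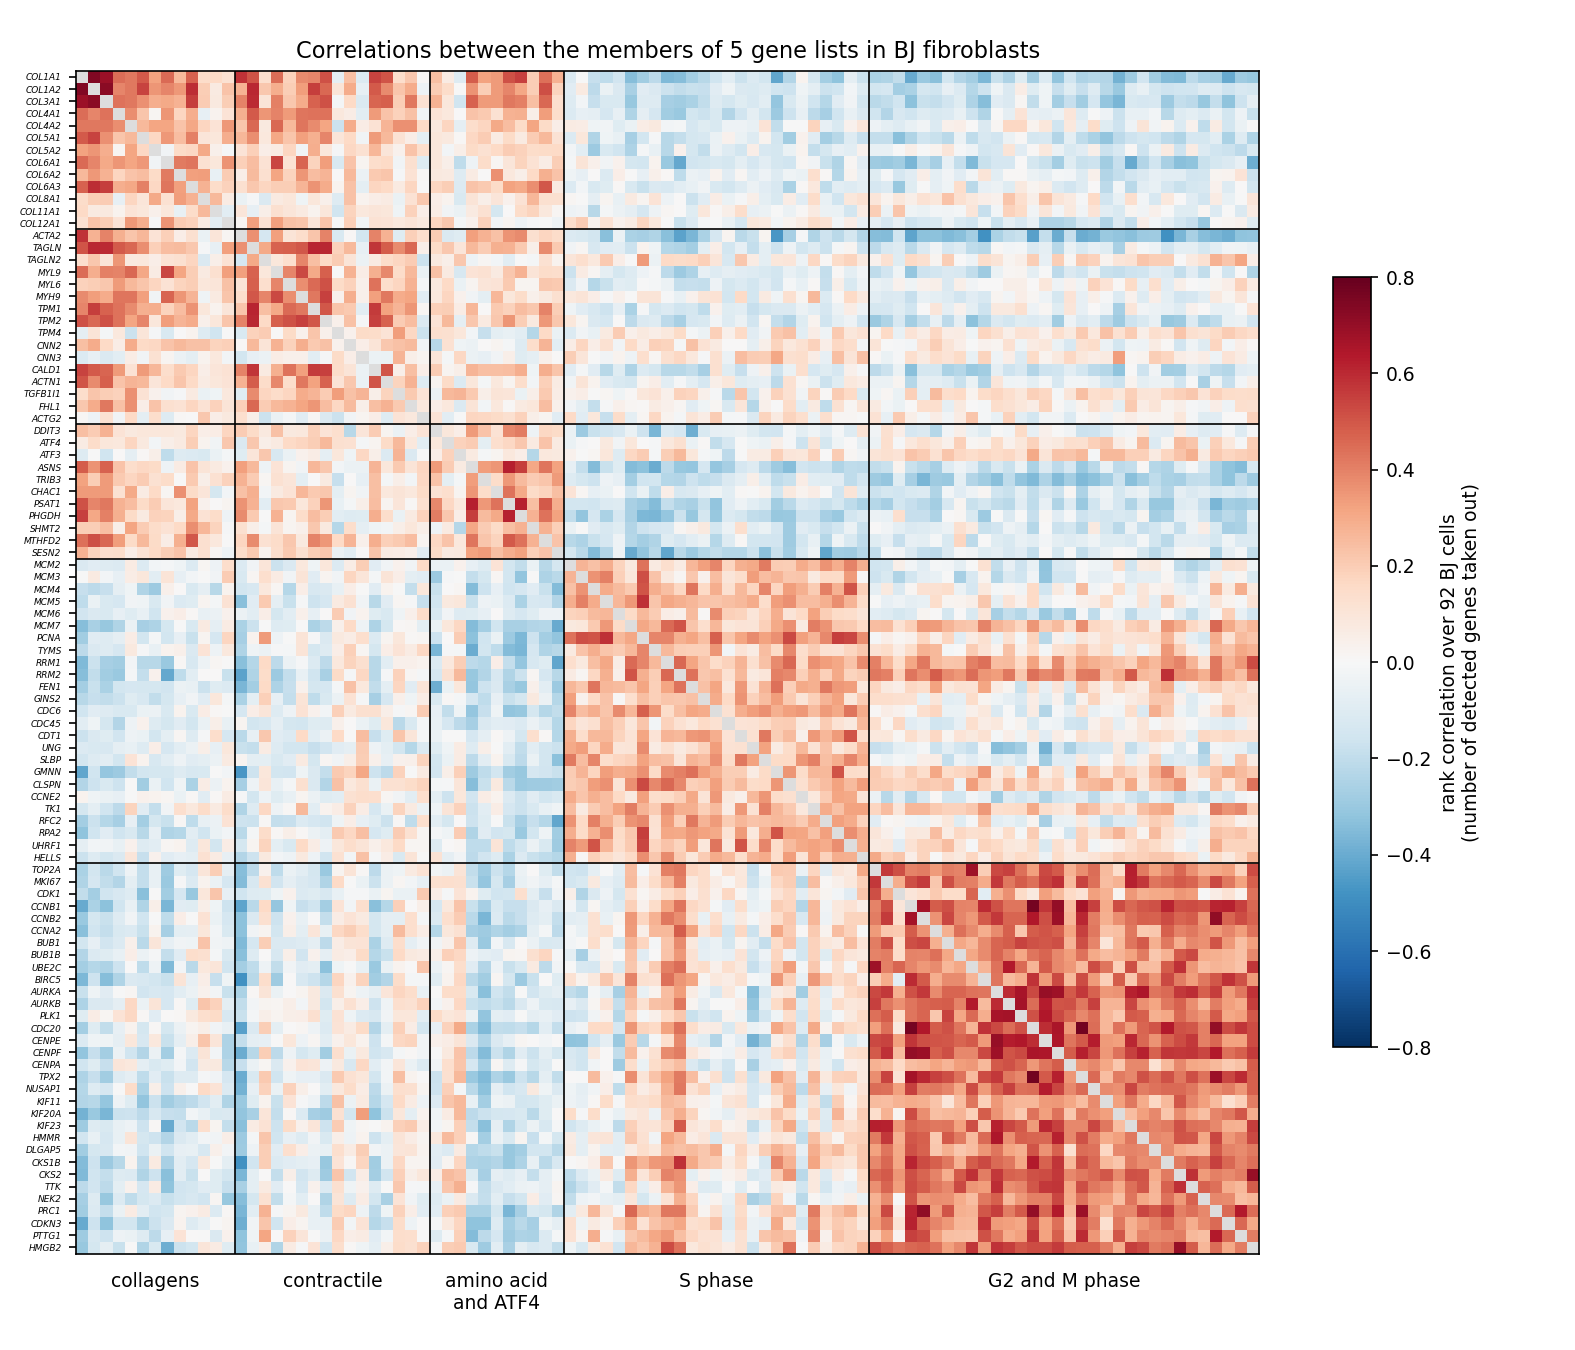
Rank correlation of every pair of members of 5 lists over 92 BJ cells, red positive and blue negative, with the lists separated by lines and the diagonal in grey. The collagen, contractile and amino acid blocks are mostly red against each other, the collagen and amino acid blocks are mostly pale blue against the G2 and M phase genes, the contractile block is near neutral against them with a median rho of -0.027, and the G2 and M phase block is the most uniformly red.

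Set against each other, the collagen and amino acid lists were weakly negative to the cell cycle lists, and some single genes were more clearly so. The collagen score correlated with the amino acid score at 0.49, with the S phase score at -0.28 and with the G2 and M phase score at -0.28, while its correlation with ribosomal proteins was 0.0020. The link to the amino acid list was not particular to it. Higher values were found for IGF binding (0.56), TEAD and YAP targets (0.56), fibroblast surface markers (0.55) and the interferon response (0.55). Lower ones were found for glycolysis (0.17) and cholesterol synthesis (0.072), among others. The contractile score was near neutral, at -0.081 with the S phase score and -0.097 with the G2 and M phase score. The amino acid score correlated with S phase at -0.43, and at -0.216 when the number of detected genes was not taken out. COL1A1 was negatively correlated with 32 of 32 G2 and M phase genes, at a median of -0.27 and at -0.25 with TOP2A. PSAT1 was negatively correlated with 25 of 25 S phase genes, at a median of -0.18, and NUPR1 with the cyclin-dependent kinase subunit CKS1B at -0.50.

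At the extremes, single cells showed this for low G2 and M phase sums but not throughout. The 5 cells with the lowest G2 and M phase sums had sums of 56.6, 72.5, 200.3, 246 and 376, and their collagen sums were 11320.3, 4124, 7479, 8206 and 11367 in the same order, all above the median of 3288. ACTA2 in these 5 cells was at 2232, 516, 3111, 5390 and 1218, where the median cell had 95.7. Their amino acid sums lay between 1968 and 3170.2, above the median of 857. In the 5 cells with the highest G2 and M phase sums, from 13819 to 15833, ACTA2 was at 0 in 3 cells, 1.10 in 1 and 57.5 in 1. Their collagen sums lay on both sides of the median, at 1776, 2690.4, 3454, 3565 and 4769. The cell with the highest S phase sum, 8199, had a collagen sum of 9089, and 1 of the 5 cells with the highest collagen sums, at 9998, had an S phase sum of 4964. The 5 cells with the lowest collagen sums, from 240.04 to 967, included 4 of the 7 cells with high FPKM totals and 1 cell with 2625 detected genes, so those low sums coincide with unusual libraries, and the part of library quality in them was not tested. The collagen sum had a rho of 0.035 with the number of detected genes and the G2 and M phase sum one of 0.18, while the contractile sum had 0.34 and the amino acid sum 0.22.

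**Figure D4:**
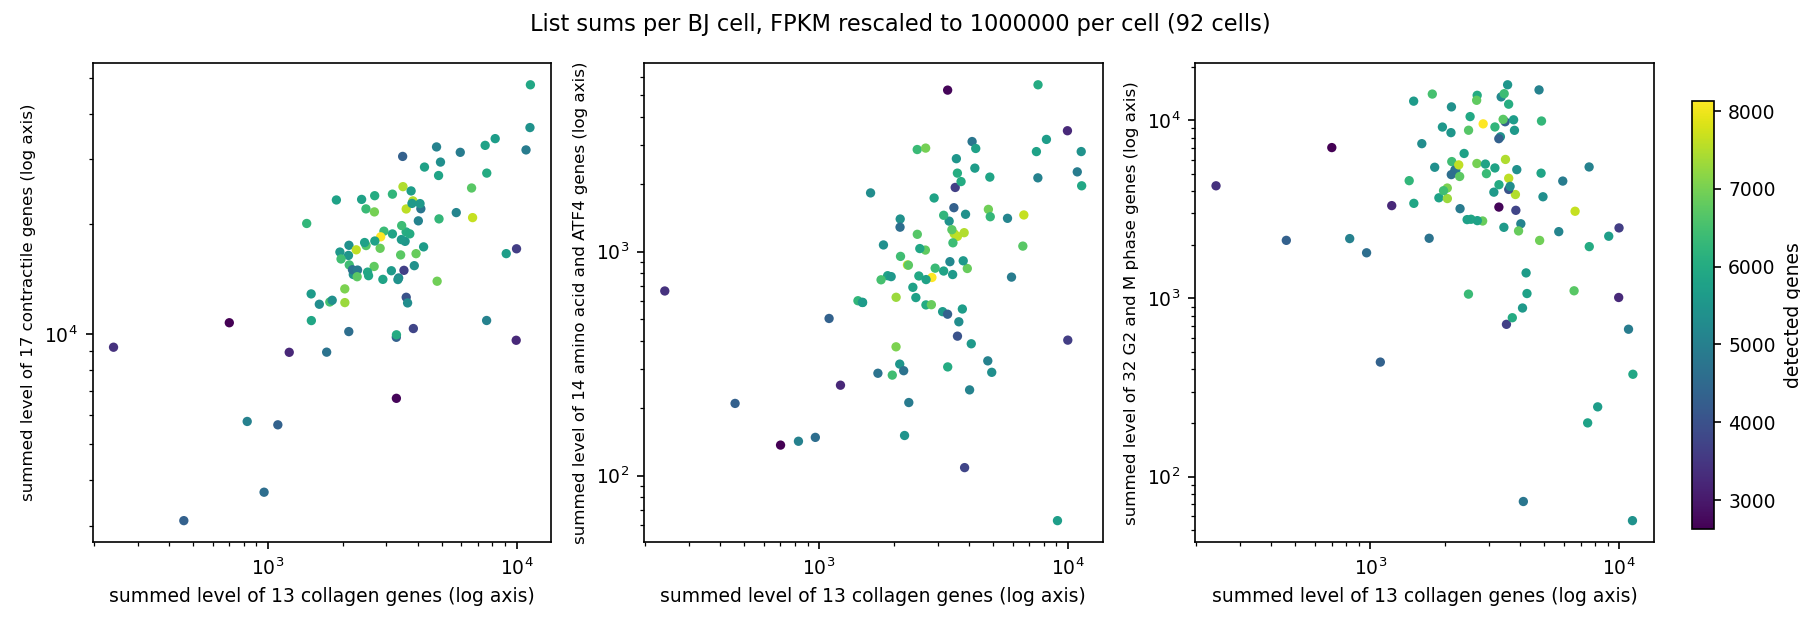
Each point is 1 of 92 BJ cells, coloured by its number of detected genes, with the summed collagen level on the horizontal axis and another list's sum on the vertical axis (all axes are log axes). Contractile sums follow collagen sums, amino acid sums do so more loosely, and the 5 cells with the lowest G2 and M phase sums have collagen sums above the median.

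When the 200 most variable genes were grouped by a tree on rho, 3 groups of at least 5 genes had a mean rho of 0.3 or more between them. The first held NUPR1, LUM, ASS1, ACTA2, IGFBP7, PSAT1 and the pseudogene WFDC21P, with a median pair rho of 0.47. The second held HMGB2, UBE2C, AURKB, NDC80 and CDK1 (0.45), and the third PTTG1, DTYMK, H2AFX, FAM64A and RPL39L (0.39). DTYMK is the thymidylate kinase, H2AFX a histone variant of the DNA damage response, and NDC80 the kinetochore protein that binds microtubules.

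In the cells that had not defined them, the second and the third group had values close to those in BJ at day 2 and day 8. The median pair rho of the second group was 0.49 in D2 cells and 0.57 in D8 cells but 0.13 in D16_pos and 0.12 in D16_neg cells, where 3 of its 5 genes were examined. These 2 low values depend on the processing, since the D16_pos value was 0.384 in cells with at least 4000 genes and the D16_neg value 0.279 with FPKM as deposited. The values of the third group were 0.37 in D2, 0.37 in D8, 0.014 in D16_pos and 0.034 in D16_neg (4 of 5 genes examined), with 0.215 in D16_pos when the number of detected genes was not taken out. The group of NUPR1, ACTA2 and LUM lay lower than in BJ, at 0.14 in D2, 0.040 in D8, -0.0046 in D16_pos (5 of 7 genes examined) and 0.15 in D16_neg. The tree groups were formed from their rho in BJ, so that lower values elsewhere are no result about them. The differences between groups of cells were not tested, since each group is 1 sample. For comparison, 1.43% of all pairs were strong in D2, 1.13% in D8, 0.895% in D16_pos and 0.402% in D16_neg.

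The collagen block recurred in every group. The median rho over collagen pairs was 0.28 in BJ, 0.27 in D2, 0.283 in D8 and 0.313 in D16_pos, where 9 and 5 of the 13 genes could be examined, and 0.30 in D16_neg. COL1A1 and COL1A2 correlated at 0.74 in BJ, 0.81 in D2, 0.73 in D8 and 0.82 in D16_neg. Of the lists that moved with the collagens in BJ, matrix enzymes and inhibitors did so in the other groups too. Their score correlated with the collagen score at 0.71 in BJ, 0.75 in D2, 0.67 in D8, 0.63 in D16_pos and 0.52 in D16_neg. The contractile score did so at 0.65 in BJ, 0.67 in D2, 0.41 in D8, 0.64 in D16_pos and 0.39 in D16_neg, and COL1A1 and FN1 correlated at 0.61 in BJ, 0.60 in D2, 0.51 in D8 and 0.62 in D16_neg. The amino acid list, PHGDH and ACTA2 were picked for their values in BJ, so that lower values elsewhere are no result about them. The collagen and amino acid scores correlated at 0.49 in BJ, 0.13 in D2, -0.11 in D8, 0.041 in D16_pos and 0.28 in D16_neg. PHGDH correlated with COL1A1 at 0.55 in BJ and 0.41 in D2, at -0.40 in D8 and at 0.20 in D16_neg. PSAT1 and PHGDH correlated with each other at 0.62 in BJ, 0.34 in D2, 0.41 in D8, -0.060 in D16_pos and 0.66 in D16_neg. ACTA2 correlated with COL1A1 at 0.58 in BJ and at 0.12 in D2, 0.21 in D8 and 0.089 in D16_neg.

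**Figure D5:**
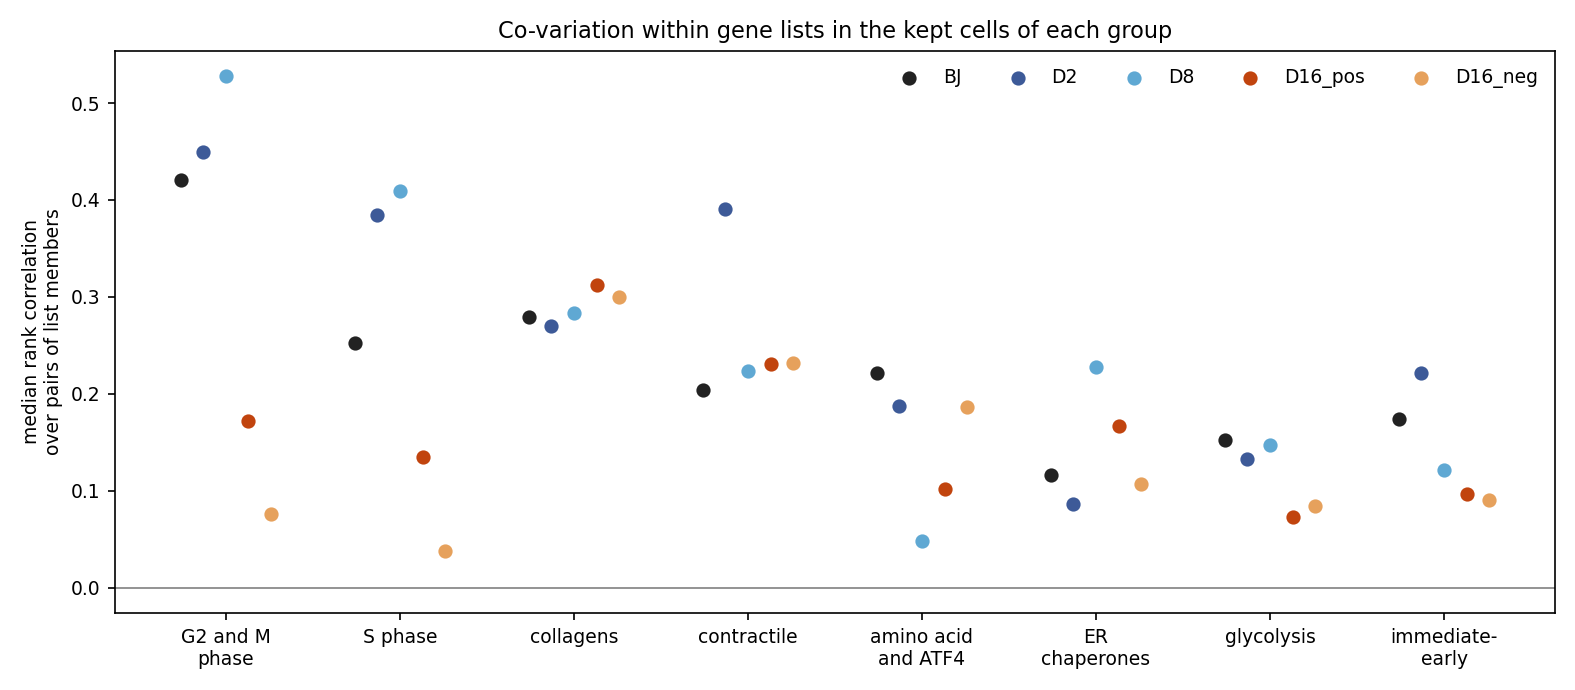
Median rank correlation over pairs of list members in the kept cells of each group, from BJ to the 2 fractions of day 16. Collagens stay between 0.27 and 0.313 in all groups, whereas the G2 and M phase list lies at 0.421 in BJ cells and at 0.076 in D16_neg cells, where 8 of its 32 genes were examined.

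The list of actins, tubulins, vimentin and further cytoskeletal genes also varied together, with 32 of 78 pairs strong (41%) and a median rho of 0.258. TMSB10 and TMSB4X did not follow the other members, with a mean rho of -0.014 and 0.064, but correlated with each other at 0.55. None of the 13 genes examined was variable, against 10.8% of all genes. ACTB and ACTG1, the cytoplasmic actins, correlated at 0.63 and the tubulins TUBA1C and TUBB4B at 0.62, though genes of both families share long stretches of sequence and their levels are uncertain. VIM (vimentin) and CFL1 (cofilin, which severs actin filaments) correlated at 0.58. The score of this list correlated with the G2 and M phase score at 0.47.

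Further gene groups were looser or smaller. Of the immediate-early genes, which respond within minutes to serum and stress, FOS was detected in 98.9% of cells with a median of 330.1 and a highest cell at 2385, and correlated with FOSB at 0.56 and with the phosphatase DUSP1 at 0.41. FOSB and EGR1 correlated at 0.60. In that list 13 of 91 pairs were strong (14.3%), against 1.26% of all pairs. Interferon-response genes had 1 strong pair of 55 (1.82%), near the 1.26% of all pairs, at a median rho of 0.127 against 0.031 over all pairs. The strong pair was IFITM2 and IFITM3 at 0.42, and these near-identical neighbours are uncertain. ISG15, a ubiquitin-like modifier, IFI6 and IFITM1 were the variable members (3 of 11, against 10.8% of all genes examined). The insulin-like growth factor binding proteins IGFBP3 and IGFBP7 were both variable and correlated at 0.56, and 4 of the 10 pairs among the 5 examined genes of that list were strong (40%), at a median rho of 0.268. IGFBP7 had a median of 257 and a range from 0 to 4062 and also correlated with TAGLN at 0.54.

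The metallothioneins MT2A, MT1E and MT1X had means of 10751, 2281 and 817 and were partly coordinated, with MT2A and MT1E at 0.50 and MT2A and MT1X at 0.44. MT2A was at least as close to LINGO2 (0.55), ZNF667 (0.53) and TMSB10 (0.50). Metallothioneins and NRF2 targets as 1 list had a median rho of 0.058, with 10 of 66 pairs strong (15.2%). The metallothionein genes are near-identical copies, so their levels are uncertain. MT1X was variable, with a median of 307 and a highest cell at 25604. The inhibitors ID1 and ID3 correlated at 0.38, and the genes nearest to ID3 included MYH9 (0.47), IGFBP7 (0.45), COL16A1 (0.45) and COL4A2 (0.43). ADM, the vasodilator peptide adrenomedullin, was variable (median 186, highest cell 2637). Its hypoxia-linked list had 0 strong pairs of 15, too few pairs to set it apart from the 1.26% of all pairs. Glycolytic enzymes were about as coordinated as the contractile genes by their share of strong pairs, with 27 of 91 pairs strong (29.7%), led by TPI1 and LDHA at 0.54. None of the 14 examined was variable, against 10.8% of all genes. Heat shock genes had 7 strong pairs of 55 (12.7%), against 1.26% of all pairs, with DNAJA1 and HSPD1 at 0.54. Their median rho was 0.049, near the 0.031 over all pairs, and HSPB1 and CRYAB had a negative mean rho to the other members (-0.091 and -0.107).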

How the data were processed

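Each of the 5 groups held 96 cells, which, per the labels' protocols, went through Fluidigm C1 chips after trypsin and became Nextera XT libraries of polyadenylated RNA. The authors deposited FPKM for 27021 genes in a separate table for each group. STAR, Cuffnorm and the build hg19 are named in the submitters' processing notes; their versions, and whether the tables were normalized jointly, are not given in the sources used here. FPKM are no read counts, so no count model was used and depth per cell is unknown. Each cell was rescaled to 1000000, cells were kept as described above, and log2(level + 1) was taken. Genes of like mean were those in the same of 20 equal-sized bins of mean log2(level + 1). Rank correlations had the number of detected genes regressed out on ranks, and the tree used average linkage on 1 minus rho. Shares of 0 carry the limit that 3 cells of 92 allow, for counting error only. Doublets could not be called from FPKM; leaving out the 5% of cells with most genes was an alternative.

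Lists were 34 in number, plus ribosomal proteins and the later split of the stress list. Members and lists were chosen with earlier results of these data known. Named genes were the 25 highest by mean, the 25 variable genes with the largest excess, members of the tree groups, the 10 nearest genes of 12 anchors, and list members; small RNA genes were counted, not named. HMGCS1, an anchor, was not examined (mean 1.71). Promoter windows and chromosomes came from RefSeq, GRCh38.p14, and transcript lengths from GENCODE for 99.0% of genes examined. Python 3.11.15, numpy 2.4.6, pandas 2.3.3 and scipy 1.17.1 were used, and the functions for spread and co-variation were tested on simulated data first.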

Additional observations from a re-analysis of the deposited data

How the results depend on the processing

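No paired analysis was possible because no result comes from a test and the cell numbers only name cells. Of 723 recomputed values under the alternatives, 12 of the main results and 35 of the further ones moved beyond the limits set for their kind. A change of sign was counted only for correlations of 0.3 or more in size, and 0 of these changed sign. The 723 also held counts, levels, shares and weaker correlations, for which no change of sign was counted. The number of variable genes, 573, became 999 with a pseudocount of 0.1 and 102 with 10, and lay between 504 and 774 under all other alternatives. The 3 tree groups depended most on settings: 1 remained with all 96 cells and 1 with the tree divided at 0.4, 0 were found among the 100 most variable genes, 5 with Pearson correlation, 5 without taking out the number of detected genes, 7 among 400 genes and 14 with the tree divided at 0.2. The correlation of the amino acid and S phase scores was -0.216 without taking out detected genes. The second tree group had a median rho of 0.384 in D16_pos cells with at least 4000 genes, and the third 0.215 there without taking out detected genes. Median rho of the G2 and M phase list stayed between 0.388 and 0.446, that of collagens between 0.224 and 0.289, and the collagen and amino acid score correlation between 0.410 and 0.516. The genes nearest to MT2A, ID3 and THY1 were the least stable, with as few as 1, 1 and 2 of 10 shared. Alternatives without the 7 cells of high total, with the total taken without small RNA genes, and with genes of like length were chosen after seeing the data, and gave 626, 583 and 504 variable genes. Unknown depth limits any reading of a gene at 0 in single cells.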

Other observations

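Of 21 secreted inflammatory and related genes, 3 were detected in more than 50% of BJ cells (CXCL12, NFKBIA and BDKRB1). IL6 was detected in 42.4% of cells, with a median of 0 and a highest cell at 469, and CXCL8 (interleukin-8) in 29.3%, with a highest cell at 436. The pair correlated at 0.24, and 0 of 36 pairs in the list were strong, against 1.26% of all pairs. CXCL12, the chemokine that stromal cells use to hold blood stem cells, was detected in 75% of cells, with a median of 24.8. IL6, CXCL12 and the bradykinin receptor BDKRB1 were the 3 variable genes of the 9 examined, against 10.8% of all genes examined. Among p53 targets, TP53I3 was variable (1 of 8 examined), near the share of 10.8% over all genes examined. CDKN1A, the cell cycle inhibitor p21, had a median of 13.4 and reached 924. In that list 0 of 28 pairs were strong, too few pairs to set it apart from the 1.26% of all pairs. Cholesterol synthesis genes were low, with a median member mean of 17.7 and 6 of 120 pairs strong (5%), against 1.26% of all pairs.

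The 4 BJ cells below the filter still had fibroblast transcripts. They had 791, 1867, 1339 and 1891 detected genes, COL1A1 at 753, 1122, 3492 and 240.4, FN1 at 231, 1067, 4496 and 2192, and RNR2 as their highest gene at 163617, 82581, 108015 and 192301, where the median kept cell had 16747. RPL21, a ribosomal protein gene with many processed copies, averaged 4.44 where the median ribosomal protein gene averaged 1846; its level is uncertain for that reason.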
